A study of Macaca mulatta with 33 samples.

Results

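FKBP5, TSC22D3 and ZBTB16 are genes whose transcription is known to be raised by activated progesterone or glucocorticoid receptors, and their mRNA was read here as a set of 3 steroid receptor targets in the rhesus corpus luteum. They were taken by gene symbol: every probe set annotated to 1 of these symbols alone was used, which gave 3 probe sets (1 per gene) of the 52865 on the array. FKBP5 was measured by MmugDNA.27015.1.S1_at, TSC22D3 by MmugDNA.10743.1.S1_at and ZBTB16 by MmuSTS.4766.1.S1_at, and each exceeded the median of all values in 33 of 33 arrays.

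The study collected corpora lutea of cycling rhesus macaque females after simulated early pregnancy, in which rising doses of human chorionic gonadotropin (hCG, the hormone that rescues the corpus luteum of pregnancy) were given from day 9 of the luteal phase. Trilostane (TRL), an inhibitor of 3β-hydroxysteroid dehydrogenase and thereby of progesterone synthesis, was given together with hCG in some groups, and the synthetic progestin R5020 was added to restore a progestin signal. Whole-tissue RNA was measured on Affymetrix Rhesus Genome arrays in 7 groups: at day 10, after 1 day of hCG, hCG + TRL + R5020 (4 arrays), hCG + TRL (4 arrays) and hCG alone (4 arrays); at day 15, after 6 days of hCG, hCG + TRL + R5020 (4 arrays), hCG + TRL (4 arrays) and hCG alone (5 arrays); and untreated tissue of day 10 (8 arrays). Every R5020 sample also carried hCG and trilostane, and untreated tissue is of day 10 only, so the day 15 groups differ from it in day as well as in treatment.

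Progesterone and cortisol act through nuclear receptors, PGR and NR3C1, that are held by HSP90 chaperones until hormone binds and then attach to related DNA elements, so that many genes answer to both. FKBP5 encodes an immunophilin that binds HSP90 and lowers the hormone affinity of the receptor, closing a negative feedback loop. TSC22D3, also called GILZ, encodes a leucine zipper protein that restrains inflammatory transcription factors, and ZBTB16, also called PLZF, encodes a zinc finger transcriptional repressor that is strongly progestin-induced in human endometrial stroma.

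Values are the deposited log2 intensities. Arrays came in 3 numbered sets that overlap the groups only in part: all day 10 hCG and hCG + TRL arrays and 4 of 5 day 15 hCG arrays are in set 1, all day 10 R5020 arrays and 3 of 4 arrays of each day 15 TRL group are in set 2, untreated tissue is split 4 and 4, and set 3 holds 1 array of each day 15 group. Changes therefore come from 1 limma fit over the 33 arrays with array set as a term, and group levels are quoted on the scale of set 1 after that term was removed. Set 2 exceeded set 1 by 0.48 ± 0.28 (SE) for ZBTB16 and 0.36 ± 0.15 for TSC22D3, and by -0.19 ± 0.29 for FKBP5. Replicates 3 and 5 of day 15 hCG have 1 sample number between them and were near-identical (SD of their differences 0.201, against a median of 0.476 over 528 pairs of arrays), and count once in each group mean. The fit holds both as arrays of day 15 hCG, so a fitted change can differ from the difference of the means. Replicate 4 of day 15 hCG + TRL and replicate 4 of day 15 hCG + TRL + R5020 were as close (0.192) although their groups differ. Whether 1 sample was hybridised under both labels was not tested. If so, 1 of the 4 arrays of one of these groups has the wrong label. For ZBTB16, TSC22D3 and FKBP5, the changes of these groups against hCG and against each other at day 15 are also given without the pair. The labels do not say whether each sample is a separate animal, so p-values measure only the spread between these arrays. That spread includes replicates 3 and 5 of day 15 hCG as separate arrays although they share 1 sample number.

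All 3 genes varied over the 7 groups. In the moderated F test of limma FKBP5 had F = 5.74 (adjusted p = 0.0081), TSC22D3 F = 4.61 (adjusted p = 0.022) and ZBTB16 F = 4.36 (adjusted p = 0.028), where 15.4% of the 28911 probe sets tested passed the same threshold of 0.05. With replicate number as a block, FKBP5 remained past it (adjusted p = 0.029), and TSC22D3 and ZBTB16 did not (0.056 and 0.13). No other array has the replicate numbers of the untreated arrays in set 2, so the block takes those arrays out. Sets 1 and 2 are then tied only through set 3, so the block cannot decide how firm these calls are. Leaving out 1 array at a time, TSC22D3 missed it without untreated replicate 2, 3 or 4 (adjusted p = 0.0502, 0.0572 and 0.0552), and ZBTB16 without day 10 hCG + TRL replicate 2 or day 15 hCG + TRL replicate 1 or 3 (adjusted p = 0.0501, 0.0935 and 0.0843).

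**Figure D1:**
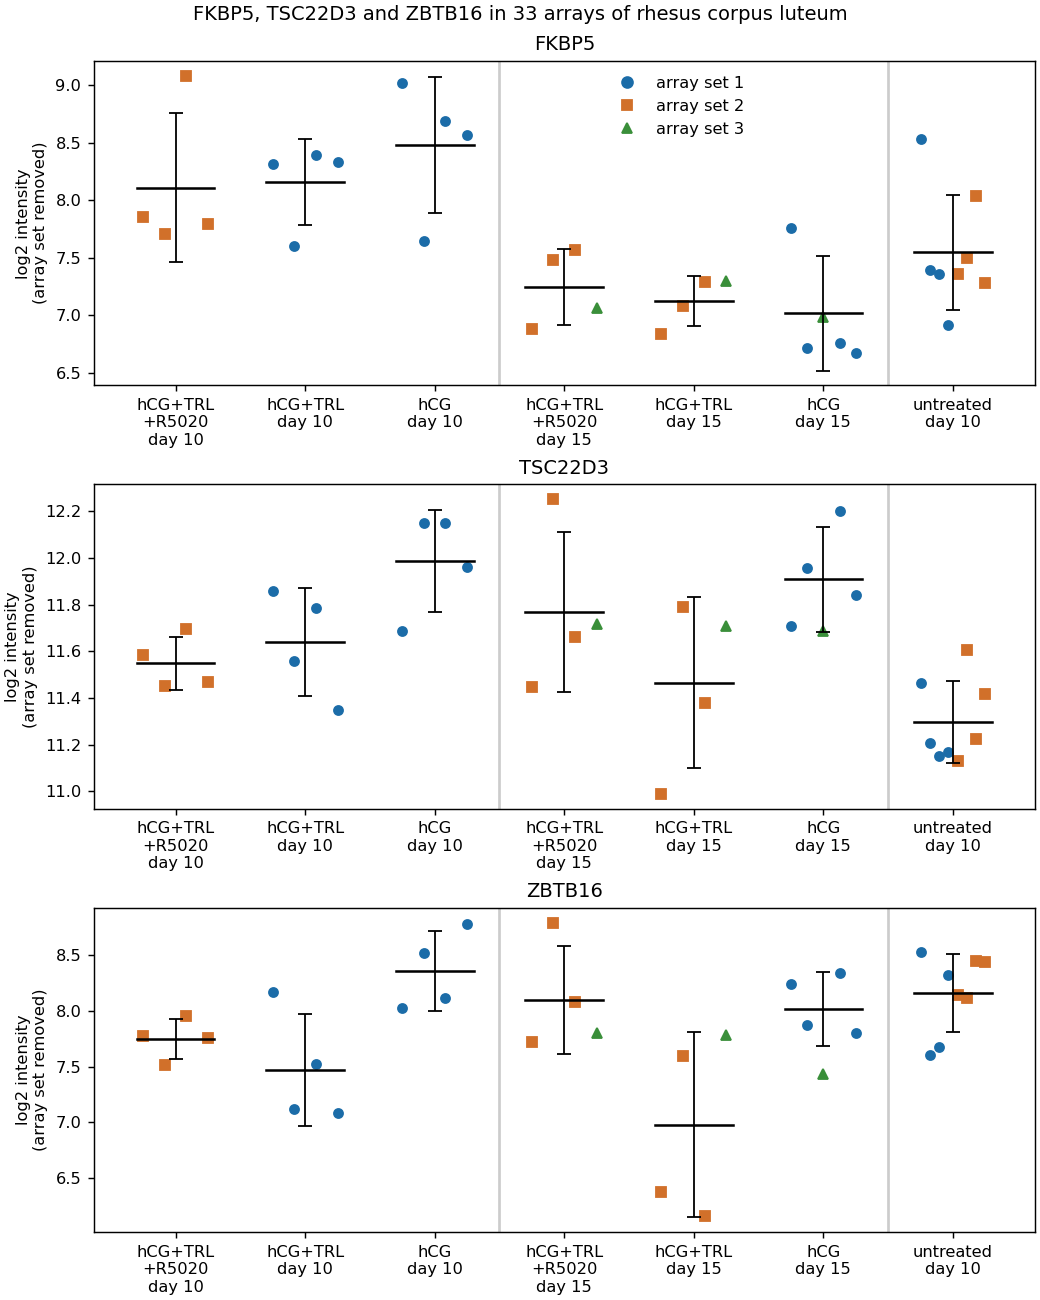
Level of FKBP5, TSC22D3 and ZBTB16 (log2 intensity after removal of the array set term, vertical axes) in each array of the 7 groups; points are arrays, marked by array set, and black bars are the group mean ± SD (n = 4, or 8 untreated; the 5 day 15 hCG arrays count as 4). On average FKBP5 is higher than in untreated tissue in the day 10 groups given hCG and lower in all day 15 groups, with overlapping arrays. In day 10 hCG + TRL + R5020 replicate 3 (9.08) stands far above its nearest neighbour (7.86). TSC22D3 is on average lowest in untreated tissue, and ZBTB16 in day 15 hCG + TRL, where 2 arrays lie far under the other 2.

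The 3 genes ordered the groups differently. FKBP5 was highest in day 10 hCG (8.48 ± 0.59, SD, n = 4), followed by day 10 hCG + TRL (8.16 ± 0.37, n = 4), day 10 hCG + TRL + R5020 (8.11 ± 0.65, n = 4), untreated tissue (7.55 ± 0.50, n = 8), day 15 hCG + TRL + R5020 (7.25 ± 0.33, n = 4), day 15 hCG + TRL (7.13 ± 0.22, n = 4) and day 15 hCG (7.02 ± 0.50, n = 4). TSC22D3 was highest in day 10 hCG (11.99 ± 0.22) and day 15 hCG (11.91 ± 0.22), lower in day 15 hCG + TRL + R5020 (11.77 ± 0.34), day 10 hCG + TRL (11.64 ± 0.23), day 10 hCG + TRL + R5020 (11.55 ± 0.11) and day 15 hCG + TRL (11.47 ± 0.36), and lowest in untreated tissue (11.30 ± 0.18). ZBTB16 was highest in day 10 hCG (8.36 ± 0.36), close to untreated tissue (8.16 ± 0.35), day 15 hCG + TRL + R5020 (8.10 ± 0.49) and day 15 hCG (8.02 ± 0.33), and lower in day 10 hCG + TRL + R5020 (7.75 ± 0.18), day 10 hCG + TRL (7.47 ± 0.50) and day 15 hCG + TRL (6.98 ± 0.83). For each gene, every group overlapped its neighbour in this order.

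FKBP5, the co-chaperone, was lower after 6 days of hCG than after 1 day. At day 15 after hCG alone its 5 arrays stood at 7.76, 6.72, 6.99, 6.76 and 6.68, against 9.02, 7.64, 8.69 and 8.56 in day 10 hCG. All day 15 arrays except the first lay under every day 10 array, so the groups overlapped through that one. The fall was 1.50 ± 0.32 (SE) on the log2 scale, or 2.83-fold (limma, adjusted p = 0.0039; 3.94% of all probe sets were called lower), and it stayed past the threshold in every setting tried, among them array set 1 alone (-1.50, adjusted p = 0.048) and a fit with replicates 3 and 5 averaged into 1 (-1.50, adjusted p = 0.0060). The same day 15 to day 10 difference was -1.04 ± 0.43 in hCG + TRL (adjusted p = 0.20; 2.86% of all probe sets were called in either direction). In hCG + TRL + R5020, where a progestin was put back, it was -0.86 ± 0.34 (adjusted p = 0.19; 2.47% called). Neither was past the threshold. Without the near-identical arrays these differences were -1.09 and -0.80 (adjusted p = 0.29 and 0.33). Leaving out single arrays gave -1.22 to -0.94 in hCG + TRL (adjusted p from 0.15 to 0.34). For hCG + TRL + R5020 such fits gave -0.995 to -0.54 (adjusted p from 0.16 to 0.51). Its day 10 replicate 3 (9.08) stood far above its nearest neighbour (7.86). In both of these pairs no day 15 array reached a day 10 array, a separation shared by 20.5% and 12% of all probe sets. The hCG + TRL groups of the 2 days share no array set, and without the array set term that difference was -1.25 (adjusted p = 0.0098).

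Set against untreated tissue, FKBP5 differed by 0.93 ± 0.32 in day 10 hCG, which is 1.91-fold and missed the threshold (adjusted p = 0.092). The 8 untreated arrays ranged from 6.92 to 8.53 with a median of 7.38, and replicate 1 stood highest. Leaving out that array gave 1.22 (adjusted p = 0.025), and leaving out day 10 hCG replicate 2, the lowest of its group, gave 1.21 (adjusted p = 0.035). In day 15 hCG the difference from untreated tissue was -0.57 ± 0.29 (adjusted p = 0.31). Luteal steroidogenic markers (4 of 7 measured) averaged 13.46 in day 15 hCG (range 13.13 to 13.66) and 13.79 in day 10 hCG (13.71 to 13.92). Of these genes HSD3B2 fell by 1.38 ± 0.28. STAR, INHA and CYP19A1 differed by 0.14 ± 0.05, 0.077 ± 0.12 and -0.041 ± 0.41 (median of the 4 changes 0.018). Macrophage markers averaged 9.62 (9.16 to 10.38) in day 15 hCG and 9.14 (8.97 to 9.30) in day 10 hCG, with 8 of 8 changes above 0 (median 0.51). Lymphocyte markers had 4 of 5 above 0 (median 0.56), and none of either list was called. Over the 33 arrays, which share their RNA and scan with both measures, FKBP5 correlated with the luteal marker mean at r = 0.60, with the macrophage mean at -0.21 (-0.81 over the 7 group means) and with the lymphocyte mean at -0.39, and the part of these cells in its level was not tested. In whole tissue, fewer cells of a type and less RNA per cell cannot be told apart.

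TSC22D3, the glucocorticoid-induced leucine zipper, was higher after hCG alone at both days. Day 10 hCG arrays stood at 11.69, 12.15, 12.15 and 11.96, and day 15 hCG arrays at 11.71, 11.96, 11.69, 12.20 and 11.84, against a range of 11.13 to 11.61 (median 11.22) in 8 untreated arrays. Every hCG array lay above every untreated array on this scale, a separation shared by 5.51% of all probe sets at day 10 and 4.16% at day 15, while on the deposited scale both pairs of groups overlapped. The rise was 0.69 ± 0.17 at day 10, or 1.61-fold (limma, adjusted p = 0.014; 3.52% of all probe sets were called higher), and 0.58 ± 0.15 at day 15, or 1.50-fold (adjusted p = 0.019; 3.82% called higher).

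Within array set 1, which holds 4 untreated arrays and all or most of the hCG arrays, the rise of TSC22D3 was 0.74 at day 10 (adjusted p = 0.024) and 0.68 at day 15 (adjusted p = 0.034). Without the array set term it was 0.51 (adjusted p = 0.050) and 0.44 (adjusted p = 0.064). The day 10 call was lost without hCG replicate 3 (adjusted p = 0.064), and the day 15 call without untreated replicate 3 or 4 or hCG replicate 4 (0.051, 0.052 and 0.075). TSC22D3 did not pass the test between the days of hCG (-0.11 ± 0.17, 95% interval -0.45 to 0.23). Its 2 rises share the untreated arrays and are not separate evidence. In day 15 hCG against untreated tissue, 8 of 8 macrophage marker changes (median 0.50) and 5 of 5 lymphocyte marker changes (median 0.32) were above 0. In day 10 hCG 4 of 8 (median -0.012) and 2 of 5 (median -0.24) were. None of these markers was called. Over the 33 arrays TSC22D3 correlated with the macrophage mean at r = -0.02 and with the lymphocyte mean at -0.32. The part of these cells in the rises was not tested.

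**Figure D2:**
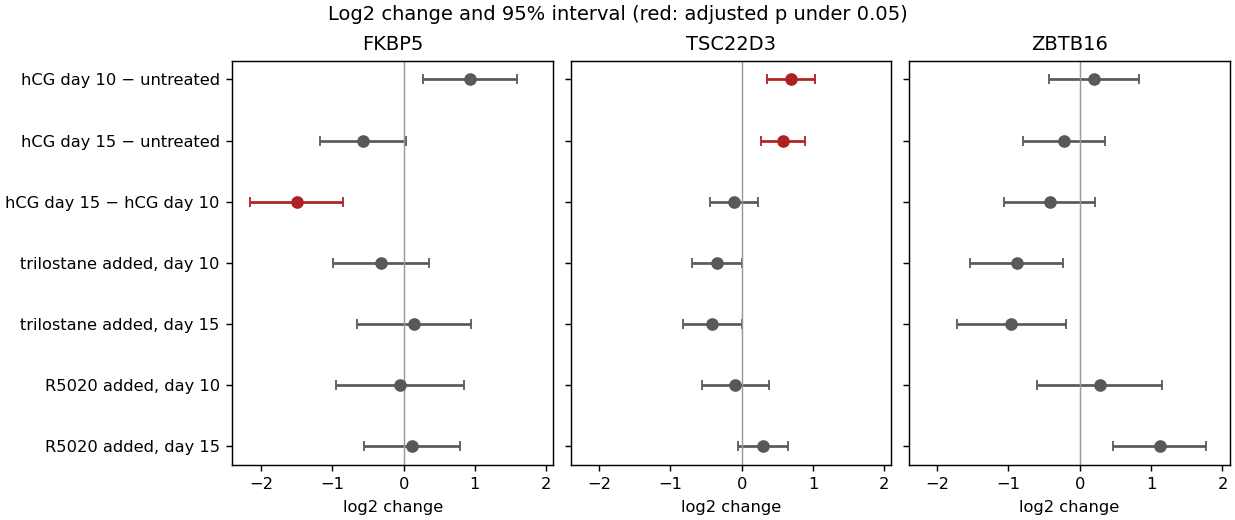
Log2 change (horizontal axes) with its 95% interval for FKBP5, TSC22D3 and ZBTB16 in 7 comparisons of the limma fit; red marks an adjusted p under 0.05. Only TSC22D3 after hCG and FKBP5 between the days of hCG are red in the comparisons drawn, and the ZBTB16 intervals for trilostane and for R5020 at day 15 lie on opposite sides of 0 without being called.

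The comparison of hCG + TRL with hCG asks how these genes stand when steroid synthesis is blocked. At day 10 all 8 arrays are in set 1, but the array titles mark every hCG array as a reanalysis. No array given trilostane is so marked at either day, so at day 10 the mark cannot be told apart from trilostane. ZBTB16 stood at 8.17, 7.12, 7.52 and 7.08 in hCG + TRL, against 8.02, 8.52, 8.11 and 8.78 in hCG. Replicates 2, 3 and 4 of the trilostane group lay under all hCG arrays and replicate 1 among them. The difference was -0.89 ± 0.32, or 1.85-fold lower, with a 95% interval of -1.54 to -0.24 and an unadjusted p of 0.0095 that missed the threshold after adjustment in limma (adjusted p = 0.24); 1150 of 28911 probe sets had a smaller p, and 1 probe set in all was called (0.00346%). Pericyte and smooth muscle markers averaged 9.52 (9.24 to 9.95) in hCG + TRL and 9.93 (9.65 to 10.11) in hCG, with 0 of 4 changes above 0 (median -0.41) and none called. The part of these cells in the ZBTB16 difference was not tested.

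The differences of the other targets under trilostane at day 10 were smaller. TSC22D3 had 11.86, 11.56, 11.79 and 11.35 in hCG + TRL, against 11.69, 12.15, 12.15 and 11.96 in hCG, a difference of -0.35 ± 0.17 (95% interval -0.70 to 0.0025). FKBP5 had 8.32, 7.60, 8.39 and 8.33 in hCG + TRL, against 9.02, 7.64, 8.69 and 8.56 in hCG, a difference of -0.32 ± 0.33 (-0.99 to 0.35). Both pairs of groups overlapped. No member passed the test at day 10 (adjusted p from 0.24 to 0.74 in limma), and the intervals reach down to -0.99 for FKBP5 and -1.54 for ZBTB16.

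At day 15 the trilostane comparison runs across array sets. The deposited ZBTB16 values were 6.82, 8.03 and 6.64 in set 2 and 8.15 in set 3 for hCG + TRL, against 8.25, 7.87, 8.31 and 7.83 in set 1 and 7.76 in set 3 for hCG. Replicates 1 and 3 of the trilostane group were the lowest of all 33 arrays, and replicates 2 and 4 lay among the hCG arrays. The fitted difference was -0.96 ± 0.37 (limma, unadjusted p = 0.016, adjusted p = 0.60; 0.0242% of probe sets were called), and -1.60 ± 0.42 without the near-identical arrays (adjusted p = 0.27). Macrophage markers had 8 of 8 changes above 0 in this comparison (median 0.53; group means 10.10 in hCG + TRL and 9.62 in hCG). Pericyte and smooth muscle markers had 1 of 4 (median -0.30; 9.47 in hCG + TRL and 9.78 in hCG). None was called, and their part was not tested.

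This difference is carried by untreated tissue and the other groups, which tie set 1 to set 2. Fitted on the 2 groups alone it rests on the single array of each in set 3, and then ZBTB16 differed by 0.35 ± 0.60 in the opposite direction. The hCG + TRL array in set 3 is replicate 4, part of the near-identical pair, so the fit on the 2 groups alone cannot decide the sign. TSC22D3 differed by -0.41 ± 0.20 at day 15 (unadjusted p = 0.0496, adjusted p = 0.72) by 0.022 in the 2 groups alone and by -0.64 without the near-identical arrays (adjusted p = 0.53). FKBP5 differed by 0.15 ± 0.39, and by 0.094 without those arrays. The trilostane effects at the 2 days did not differ past the threshold for any of the 3 genes (difference of effects -0.071 ± 0.49 for ZBTB16, adjusted p = 1.00).

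**Figure D3:**
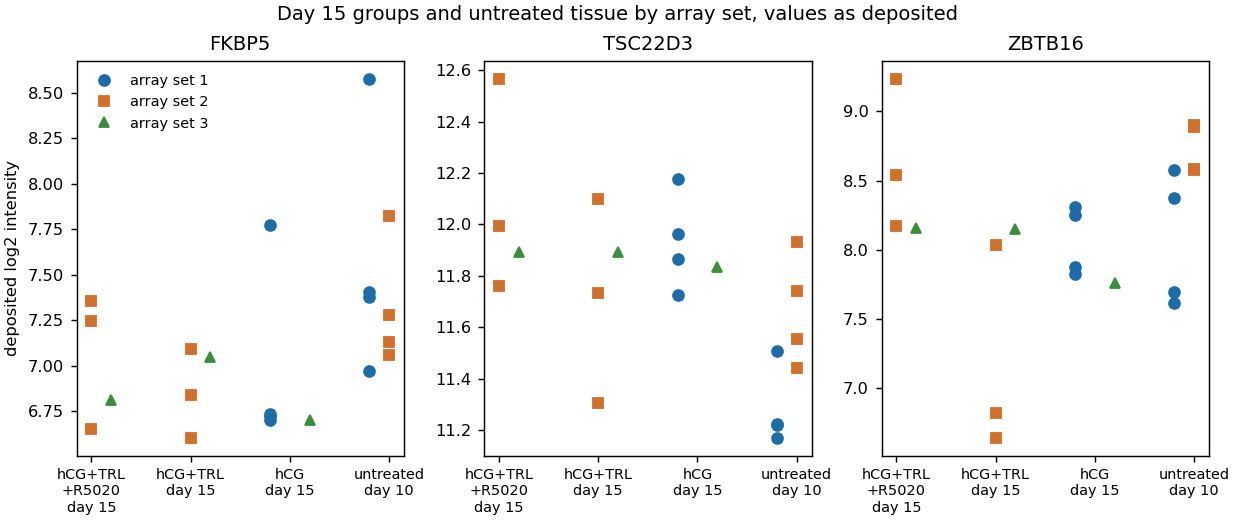
Deposited log2 intensity (vertical axes) of FKBP5, TSC22D3 and ZBTB16 in the day 15 groups and in untreated day 10 tissue, by array set (marker shape and colour, drawn side by side within a group). The hCG + TRL groups share only set 3 with day 15 hCG, at 1 array each, and the 2 lowest ZBTB16 values (6.64 and 6.82) are set 2 arrays of hCG + TRL.

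Against untreated tissue, which shares array set 2 with it, ZBTB16 was lower in day 15 hCG + TRL. Its arrays stood at 6.37, 7.60, 6.16 and 7.78, against 7.61 to 8.53 (median 8.23) in 8 untreated arrays. Both replicates 1 and 3 lay more than 1 log2 unit under the lowest untreated array, replicate 2 beside that array and replicate 4 within the untreated range. The fall was 1.18 ± 0.31 on the log2 scale, or 2.27-fold (limma, adjusted p = 0.015; 4.66% of all probe sets were called lower). Within set 2 it was -1.58 (adjusted p = 0.038), and without the near-identical arrays -1.58 (adjusted p = 0.0026).

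That call rests on few arrays. Without replicate 1 of hCG + TRL it was -0.96 (adjusted p = 0.085), and without replicate 3 -0.88 (adjusted p = 0.088). With replicate number as a block the difference was -0.45 (adjusted p = 0.90). That block takes the untreated arrays of set 2 out of the comparison, so sets 1 and 2 are tied only through the single arrays of set 3. The blocked value therefore cannot decide whether the call holds. In the same comparison 0 of 4 pericyte and smooth muscle marker changes were above 0 (median -0.49). Of these markers 2 were called lower, TAGLN by 0.75 ± 0.24 and CSPG4 by 0.66 ± 0.16 (4.66% of all probe sets were called lower). Macrophage markers had 8 of 8 changes above 0 (median 0.84), and 4 were called higher (4.16% of all probe sets were called higher). Pericyte and smooth muscle markers averaged 9.47 (9.21 to 9.60) in day 15 hCG + TRL and 9.94 (9.71 to 10.14) in untreated tissue, and macrophage markers averaged 10.10 (9.34 to 10.51) and 9.17 (8.32 to 9.98). Over the 33 arrays ZBTB16 correlated with the pericyte and smooth muscle mean at r = 0.52 and with the macrophage and lymphocyte means at -0.48 and -0.62, and the part of these cells in the fall was not tested. FKBP5 and TSC22D3 did not pass in this comparison (-0.42 ± 0.32 and 0.17 ± 0.17).

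The comparison of hCG + TRL + R5020 with hCG + TRL asks whether the targets change when a progestin is put back. ZBTB16 had the largest difference of the 3 genes, at day 15, and it did not pass the test over all probe sets. The deposited values were 8.17, 9.23, 8.54 and 8.16 in hCG + TRL + R5020, against 6.82, 8.03, 6.64 and 8.15 in hCG + TRL, in arrays of the same sets and in replicate order. Every R5020 array lay above every trilostane array on this scale, though replicate 4 of each, the near-identical pair, stood at 8.16 and 8.15. After removal of array set the groups overlapped, with R5020 replicate 1 (7.73) under hCG + TRL replicate 4 (7.78). On that adjusted scale 2.76% of all probe sets were separated, ZBTB16 not among them. The share on the deposited scale was not counted. The difference was 1.12 ± 0.32, or 2.18-fold, with a 95% interval of 0.47 to 1.77.

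Its unadjusted p was 0.0015, and 42 of 28911 probe sets had a smaller one, yet the adjusted p was 0.98 in limma and 0 probe sets (0%) were called, while 1010 had an unadjusted p under 0.05. Without the near-identical arrays the difference was 1.49 ± 0.33 (adjusted p = 0.18), and leaving out single arrays gave 0.84 to 1.54 (adjusted p from 0.078 to 1.00). Macrophage markers averaged 9.60 (9.43 to 9.73) in hCG + TRL + R5020 and 10.10 (9.34 to 10.51) in hCG + TRL, with 0 of 8 above 0 in the difference, and pericyte and smooth muscle markers averaged 9.82 (9.67 to 9.90) and 9.47 (9.21 to 9.60), with 3 of 4 above 0. Lymphocyte markers averaged 7.45 (7.41 to 7.52) in hCG + TRL + R5020 and 7.95 (7.36 to 8.48) in hCG + TRL, with 1 of 5 above 0 (median -0.52). Luteal steroidogenic markers had 4 of 4 above 0 (median 0.18). The part of these cells in the difference was not tested.

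**Figure D4:**
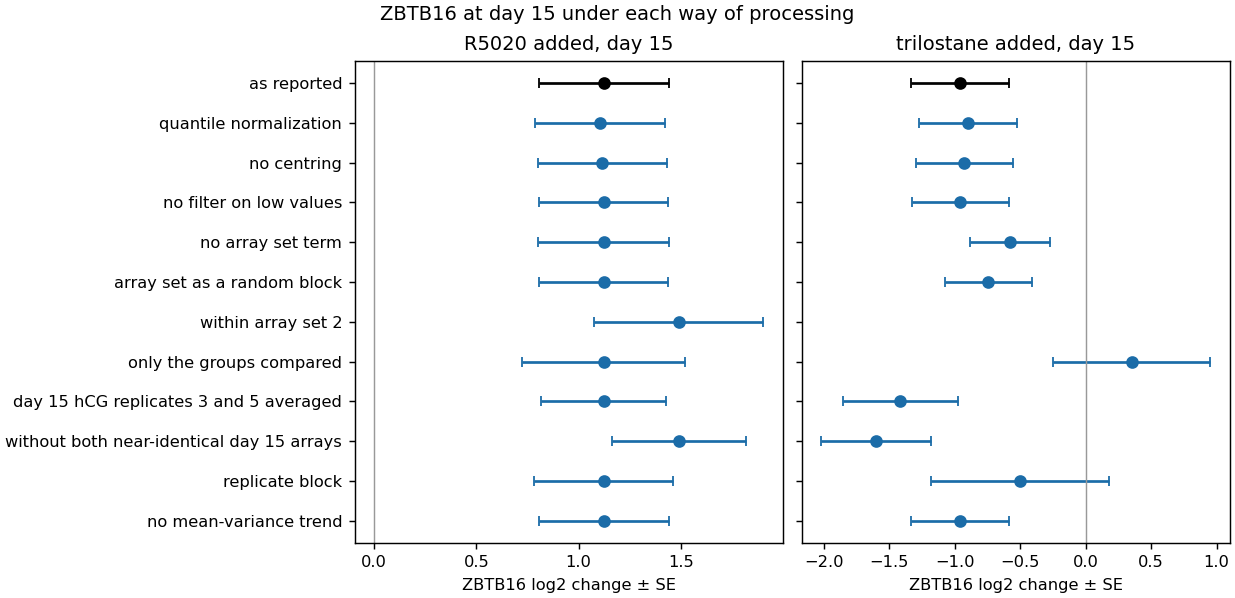
ZBTB16 log2 change ± SE (horizontal axes) at day 15 for R5020 added to trilostane and for trilostane added to hCG, under each way of processing (rows; a setting that gives no value is left blank). The R5020 change stays between 1.10 and 1.49, and the trilostane change runs from -1.60 to 0.35, the last from a fit on the 2 groups alone.

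At day 10 the R5020 and trilostane groups share no array set. ZBTB16 stood at 7.78, 7.52, 7.95 and 7.75 in hCG + TRL + R5020, against 8.17, 7.12, 7.52 and 7.08 in hCG + TRL, a difference of 0.28 ± 0.43 (95% interval -0.59 to 1.15). The groups overlapped, and the R5020 arrays were the tighter. The R5020 effect at day 15 exceeded that at day 10 by 0.84 ± 0.53, which was not past the threshold (limma, adjusted p = 1.00; 0% of probe sets were called at either day), so the days are not shown to differ.

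FKBP5 and TSC22D3 gave no call for R5020 at either day. TSC22D3 had deposited values of 11.76, 12.57, 11.99 and 11.89 in day 15 hCG + TRL + R5020, against 11.31, 12.10, 11.73 and 11.89 in hCG + TRL, a difference of 0.30 ± 0.17 (95% interval -0.047 to 0.65). The groups overlapped, with R5020 replicate 2 the highest of all 33 arrays and trilostane replicate 1 the lowest of these 8. FKBP5 had 6.65, 7.24, 7.35 and 6.81, against 6.60, 6.84, 7.09 and 7.05, a difference of 0.12 ± 0.33 (-0.55 to 0.80). Without the near-identical arrays the differences were 0.40 for TSC22D3 and 0.24 for FKBP5 (adjusted p = 1.00 each). At day 10 the differences were -0.089 ± 0.23 for TSC22D3 and -0.051 ± 0.44 for FKBP5, and R5020 replicate 3 carried the highest FKBP5 level of all arrays after removal of array set (9.08, with 7.86, 7.71 and 7.79 in the other arrays of its group).

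Against hCG alone, day 15 hCG + TRL + R5020 differed by 0.16 ± 0.37 for ZBTB16, -0.11 ± 0.20 for TSC22D3 and 0.27 ± 0.39 for FKBP5, in a comparison with no calls (0%). The widest of these intervals, for FKBP5, ran from -0.52 to 1.06, so the groups are not shown to be alike. Without the near-identical arrays the differences were -0.11 for ZBTB16, -0.24 for TSC22D3 and 0.34 for FKBP5. Against untreated tissue the same group differed by -0.059 ± 0.31 for ZBTB16 and by 0.47 ± 0.17 for TSC22D3 (adjusted p = 0.11; 4.18% of all probe sets were called).

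ZBTB16 and TSC22D3 moved together from array to array within groups. After removal of array set and group means, they correlated at r = 0.70 over the 33 arrays, against 0.25 for FKBP5 with ZBTB16 and 0.13 for FKBP5 with TSC22D3. With group means kept in, r of ZBTB16 with TSC22D3 was lower, at 0.45 over the 33 arrays and 0.42 over the 7 group means. Day 15 R5020 replicate 2 was the highest in its group for both, day 10 hCG + TRL replicate 1 was the highest in its group for both, and its replicate 4 was the lowest for both. These values share the array and its RNA, so the correlation is a description of these arrays.

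The genes most like each target over the 33 arrays were different for each. FKBP5 ran with MYOM1 and IL1RL1 (r = 0.83 each), ANKRD22 (0.82), DESI2 and CXADR (0.81 each) of 9823 genes. TSC22D3 ran with ALKBH2 (0.82), LEMD2 and SLC35C2 (0.81 each), ISCA2 (0.80) and JRKL (0.79). ZBTB16 ran with MBOAT2 (0.77), ARHGEF26 (0.75), REPS2 and MBLAC1 (0.72 each) and MRAP2 (0.71). The 99th percentile of r over these genes was 0.67 for FKBP5, 0.67 for TSC22D3 and 0.57 for ZBTB16.

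Other genes known to respond to progestins or glucocorticoids were read from a list of 28, of which 24 were measured. After 1 day of hCG, 5 of 24 were called higher than in untreated tissue and 0 lower (3.52% and 1.21% of all probe sets were), among them KLF15, a transcription factor (0.76 ± 0.18), CRISPLD2 (1.00 ± 0.20), IRS2, an insulin receptor adaptor (1.41 ± 0.29), and RGS2, a regulator of G protein signalling (1.20 ± 0.29). After 6 days of hCG, 3 were called higher (3.82% of all probe sets were), the kinase SGK1 (0.61 ± 0.15), GLUL (0.47 ± 0.14) and FAM107A (0.76 ± 0.16). In day 10 hCG + TRL, 4 were called higher than in untreated tissue and 1 lower (2.83% of all probe sets were called), with IRS2 at 1.88 ± 0.29 and RGS2 at 1.54 ± 0.29. Between the days of hCG, 7 of 24 changes were above 0 (median -0.25), where 50.5% of all probe sets were (median 0.0024). Of the list SGK1 was called higher at day 15 (0.66 ± 0.16; 2.77% of all probe sets were called higher) and RGS2 and GREB1 lower (-1.09 ± 0.29 and -1.09 ± 0.31; 3.94% called lower).

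Under trilostane 0 of these 24 genes were called in either direction at either day, where 0.00346% (day 10) and 0.0242% (day 15) of all probe sets were. At day 10, 4 of 24 changes were above 0 (median -0.15), where 37.1% of all probe sets were (median -0.060), and at day 15 likewise 4 of 24 (median -0.16), where 42.9% were (median -0.031). When R5020 was added at day 15, 15 of 24 were above 0 (median 0.17, against 53.2% and 0.0096 over all probe sets), and at day 10, 8 of 24 (median -0.20, against 57.1% and 0.034). The day 15 trilostane and R5020 comparisons share the trilostane arrays, so their opposite signs are not separate observations.

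**Figure D5:**
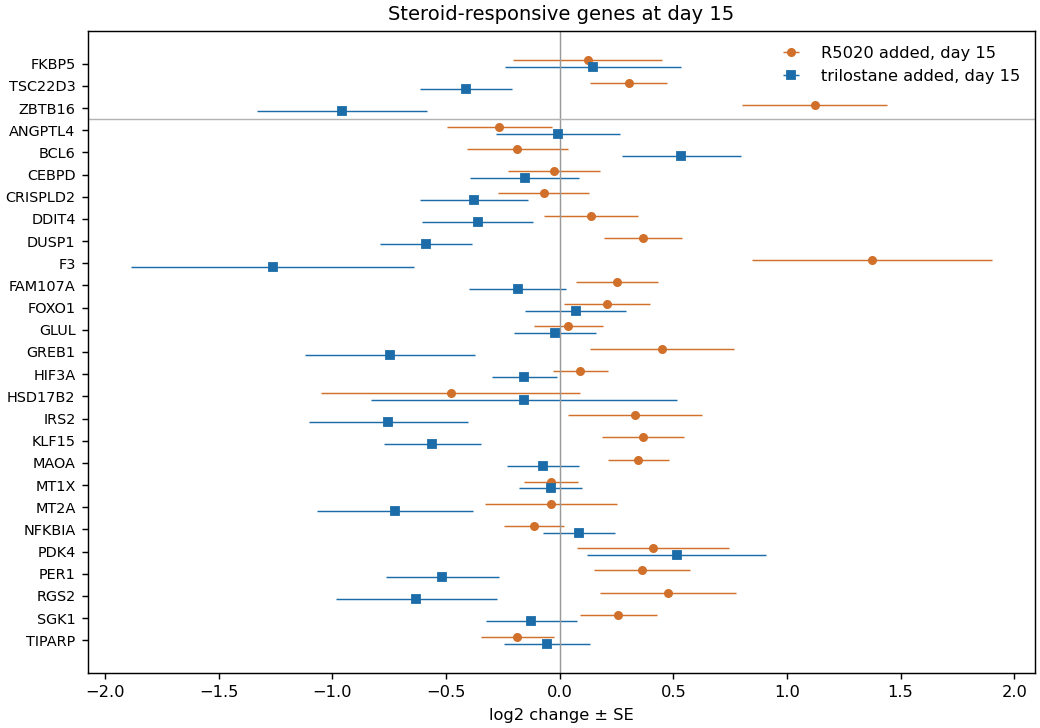
Log2 change ± SE (horizontal axis) at day 15 for R5020 added to trilostane (orange circles) and trilostane added to hCG (blue squares), for FKBP5, TSC22D3 and ZBTB16 (above the line) and the 24 measured genes of the steroid-responsive list. None is called in either comparison, where 0% (R5020) and 0.0242% (trilostane) of all probe sets were. Of the list, 15 of 24 R5020 changes and 4 of 24 trilostane changes lie above 0.

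The receptors and their chaperones (16 of 21 measured) gave 0 calls under trilostane or R5020, where 0% to 0.0242% of all probe sets were called. PGR, the progesterone receptor, was lower at day 15 than in untreated tissue in each group. The fall was 0.80 ± 0.23 in hCG + TRL + R5020, 0.95 ± 0.23 in hCG + TRL and 1.03 ± 0.21 in hCG. Of all probe sets 2.25%, 4.66% and 1.84% were called lower in these comparisons. Between the days of hCG, the HSP90 subunit HSP90AB1 fell by 0.37 ± 0.11 and the HSP90 co-chaperone STIP1 by 0.69 ± 0.13 (3.94% of all probe sets were called lower). PGRMC2 and NCOA2 rose by 0.40 ± 0.11 and 0.40 ± 0.12 (2.77% called higher). Of the enzymes that make or convert the steroid ligands (9 of 16 measured), 3 fell between the days of hCG (3.94% of all probe sets were called lower): HSD3B2, the target of trilostane, by 1.38 ± 0.28, HSD11B1, which regenerates active glucocorticoid, by 0.81 ± 0.16, and FDXR by 0.70 ± 0.17. Relatives of the 3 genes by name (15 of 18 measured) gave 0 calls in the hCG, trilostane and R5020 comparisons. Of all probe sets, 4.74% (day 10) and 5.66% (day 15) were called for hCG against untreated tissue, and 0% to 0.0242% for trilostane or R5020. FKBP10 was lower in day 15 hCG + TRL than in untreated tissue (-0.59 ± 0.18, with 4.66% of all probe sets called lower). TSC22D1 was higher at day 15 than at day 10 in hCG + TRL + R5020 (0.48 ± 0.12, with 1.11% called higher).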

How the data were processed

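Per the file headers, the deposited values are log2 intensities per probe set on 33 arrays; how they were background-corrected and summarized is not given in the sources used here. Values ran from 2.6 to 15.12. Of 52865 probe sets, 28911 entered the tests: 99 controls were dropped, and values had to lie over 6.19 (the overall median) in 4 or more arrays. Because array medians spanned 0.183, arrays were median-centred. Names come from the platform annotation, in which 24969 have 1 symbol and 361 several, and 24629 matched RefSeq names.

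Groups are those of the labels and array set is the number in the array names. limma 3.58.1 (R 4.3.3) was fitted to all 33 arrays with group and array set as terms and a mean-variance trend, after testing on simulated data, and p-values were Benjamini-Hochberg adjusted over the 28911 probe sets within each of 17 comparisons. SDs are over arrays, and errors of changes are standard errors. Their number of 4 or so per group limits the precision. The members, lists and tests were chosen with earlier results of these data known. Genes most like a member were the 5 with the highest Pearson correlation, and list genes are named where a comparison called them, up to 4 a list by adjusted p. Alternatives were other normalizations, filters and array set terms, the near-identical arrays, a replicate block and leaving out each array. Over all groups pooled, same-numbered arrays correlated at a median of 0.02 (-0.38 to 0.51) in their deviations from group means. Arrays of other numbers correlated at a median of -0.0022 (-0.75 to 0.63). The fit treats the samples as unpaired, and pairing between particular groups was not tested. No sequences or genome positions were used here.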

Additional observations from a re-analysis of the deposited data

Results flagged for a closer look

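Chance puts about 1 in 20 groups past the criterion used here for a single array that stands apart, and 3 of 21 gene and group combinations were past it, all of them FKBP5. In day 10 hCG + TRL + R5020, replicate 3 was the highest at 9.08, with its nearest neighbour at 7.86, and the gap made up 0.893 of the group's range. In day 10 hCG + TRL, replicate 2 was the lowest at 7.60, with its nearest neighbour at 8.32, and the gap made up 0.911 of the range. In day 15 hCG, replicate 1 was the highest at 7.76, with its nearest neighbour at 6.99, and the gap made up 0.711 of the range.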

How the results depend on the processing

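Precision is limited by 4 arrays in most groups. FKBP5 between the days of hCG was called under all 11 other settings (-1.55 to -1.30) and all 9 leave-one-out fits (-1.78 to -1.32). The number of genes called of 3 changed as follows. For day 10 hCG against untreated tissue it was 1, became 2 with array set as a random block and ran from 0 to 2 when single arrays were left out. For day 15 hCG against untreated tissue it was 1, became 0 without the array set term and ran from 0 to 1 when single arrays were left out. For day 15 hCG + TRL against untreated tissue it was 1, became 0 with the replicate block and ran from 0 to 1 when single arrays were left out. It was 0 and became 1 without the array set term for day 10 hCG + TRL and day 15 hCG + TRL + R5020 against untreated tissue (the last also with array set as a random block) and for hCG + TRL between the days. In the F test it was 3, and 1 with the replicate block. The replicate block takes out the untreated arrays of set 2 and ties sets 1 and 2 only through set 3. Its values therefore cannot decide these calls or the signs given below. Without the array set term FKBP5 rose by 1.03 in day 10 hCG (adjusted p = 0.024, limma), and with a random block by 0.99 (adjusted p = 0.044). Signs turned in these uncalled values: for R5020 at day 10, FKBP5 gave 0.74 with the replicate block and -0.37 to 0.083 when single arrays were left out, and TSC22D3 gave 0.27 without the array set term and in the compared groups alone, 0.11 with a random block and 0.43 with the replicate block; for trilostane at day 15, FKBP5 gave -0.013 without the array set term, and in the compared groups alone TSC22D3 gave 0.022 and ZBTB16 0.35. The day 15 values in the compared groups alone rest on the single array of each group in set 3. That array of hCG + TRL is part of the near-identical pair. The cause of the sign changes was not tested. Of 29 other differences with an unadjusted p of at least 0.05, 17 changed sign under some setting and 0 were called under any. By Spearman in place of Pearson correlation, 2, 3 and 0 of the 5 genes most like FKBP5, TSC22D3 and ZBTB16 were shared. Each gene has 1 probe set, so no other probe set could be tried.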
